A study of Mus musculus with 2 samples.

Results

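The Mir183 cluster is a group of 3 neighbouring hairpins, Mir183, Mir96 and Mir182, that are cut from 1 primary transcript. Its members here are the 5 mature miRNAs miR-183-5p, miR-183-3p, miR-96-5p, miR-182-5p and miR-182-3p, taken by name from the deposited tables. All 5 were listed in both libraries, among 1125 mature miRNAs listed in at least 1 library. miR-96-3p, the opposite arm of the Mir96 hairpin, was listed as well and is given beside them where the arms of a hairpin are compared. It is not counted as a member.

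Small RNA was sequenced from mouse helper T cells, with 1 library of control cells (Th0) and 1 of cells cultured toward the interleukin-17-producing Th17 state. Both began as naive CD4+CD62L+ T cells from the spleen of female C57BL/6 mice, of unstated age and number. The Th0 medium, with 10% serum, held 1 µg/ml anti-CD28 and 5 µg/ml each of antibodies to IL-4 and IFN-γ. The Th17 medium held these and 5 µg/ml each of antibodies to IL-2 and IL-12, with 2 ng/ml TGF-β, 40 ng/ml IL-6, 10 ng/ml IL-1β and 40 ng/ml IL-23. The Th17 cells were kept for 6 to 7 days. No duration is stated for Th0, so culture time and the Th17 conditions cannot be told apart. The labels mention triplicates, but each table holds 1 column of reads, and the labels do not say whether it is 1 replicate or a pool. There is therefore no spread between cultures, no test of the conditions and no p-value. Every interval below is an exact 95% interval that covers counting error only and takes each read as an independent count. Without molecular identifiers PCR copies are counted as separate reads, so these intervals may be too narrow even for counting error.

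In mammals the cluster is best known from sensory organs such as the retina and inner ear, where its miRNAs are abundant. In helper T cells, interleukin-2 signalling is known to induce miR-182, and in Th17 cells IL-6 signalling through STAT3 is known to induce the cluster. The mRNA of Foxo1, a transcription factor that restrains effector T cells, is a known target, and its repression is linked to stronger Th17 function. Each hairpin gives a 5p and a 3p strand, of which 1 is usually kept as the guide and the other, the passenger, is mostly degraded. A miRNA finds its targets mainly through its seed, bases 2 to 8 from the 5′ end.

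The sequences of the 5 members and miR-96-3p are shown because the 3 guide arms resemble each other and yet were listed at very different levels. They are RefSeq sequences (GRCm38.p6), 5′ to 3′, with the seed in capitals, and all 5 members matched an entry.
miR-183-5p: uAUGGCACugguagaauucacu
miR-96-5p: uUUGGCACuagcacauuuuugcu
miR-182-5p: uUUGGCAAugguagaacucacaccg
miR-183-3p: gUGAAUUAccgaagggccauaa
miR-96-3p: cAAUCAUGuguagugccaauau
miR-182-3p: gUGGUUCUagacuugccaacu

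The seeds of the guide arms were near-identical but not shared. Counted from 1 at the 5′ end, the seed of miR-182-5p differed from that of miR-96-5p by C8A, and that of miR-183-5p differed from that of miR-96-5p by U2A. Between miR-182-5p and miR-183-5p the seeds differed by U2A and A8C. Over the whole arm, without gaps, miR-182-5p and miR-183-5p were identical at 18 of 22 bases, miR-96-5p and miR-183-5p at 13 of 22, and miR-96-5p and miR-182-5p at 12 of 23. Among the mature mouse miRNAs of RefSeq, miR-1271-5p has the seed of miR-96-5p, and neither library listed it. No other entry of that set had the seed of miR-183-5p or of miR-182-5p.

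In GRCm38, the assembly of mm10, the 3 hairpins lie on the minus strand of chromosome 6, so the transcript reads Mir183 (30169668 to 30169737), then Mir96 (30169446 to 30169551), then Mir182 (30165918 to 30165992). Mir183 and Mir96 are 116 bases apart, and Mir96 and Mir182 are 3453 bases apart. In GENCODE M21 no gene on either strand overlapped them, apart from the entries of the hairpins themselves. The nearest other genes are the noncoding Rncr4 (30172893 to 30175126) on the plus strand and the protein-coding Nrf1, which ends at 30153458. The hairpins are printed with the 2 mature arms in capitals, because the arm results below compare these strands.
Mir183: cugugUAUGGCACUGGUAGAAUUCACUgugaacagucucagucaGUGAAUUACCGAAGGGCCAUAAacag
Mir96: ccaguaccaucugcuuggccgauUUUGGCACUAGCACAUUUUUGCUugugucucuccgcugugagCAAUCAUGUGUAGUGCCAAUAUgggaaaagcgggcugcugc
Mir182: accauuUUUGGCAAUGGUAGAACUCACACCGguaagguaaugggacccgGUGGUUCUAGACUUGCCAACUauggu

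The guide arms of the flanking hairpins were slightly higher in the Th17 library, whereas miR-96-5p, from the hairpin between them, was lower. miR-182-5p was among the most abundant miRNAs of both libraries, and miR-96-5p was far rarer. Levels are in CPM, counts scaled so that the listed reads of a library sum to 1000000, and a fold is the CPM in Th17 over the CPM in Th0. The libraries held 8358010 listed reads for Th0 and 11975371 for Th17.

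miR-182-5p, which represses Foxo1 in activated helper T cells, had 197421 reads in Th0 and 319854 in Th17. These are 23621 CPM (23517 to 23725) and 26709 CPM (26617 to 26802). The Th17 level was 1.13-fold that of Th0 (1.12 to 1.14), and the intervals of the levels did not overlap. It ranked 10th of all miRNAs in Th0 and 12th in Th17, so its rank was lower in the library where its level was higher.

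miR-183-5p, the guide arm of the first hairpin, had 35273 reads in Th0 and 53379 in Th17, or 4220 CPM (4176 to 4265) and 4457 CPM (4420 to 4495). Its fold was 1.06 (1.04 to 1.07), again with levels whose intervals did not overlap. It ranked 30th in Th0 and 28th in Th17. Under the other ways of scaling the libraries its fold ran from 1.02 to 1.12, so the size of this small difference depends on the scaling and its direction did not.

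miR-96-5p, known for its part in hearing and also a miRNA that targets Foxo1, had 810 reads in Th0 and 671 in Th17. Its level was 96.9 CPM (90.4 to 103.8) in Th0 and 56.0 CPM (51.9 to 60.4) in Th17. That is a 1.73-fold lower level in Th17 (1.56 to 1.92). It had fewer reads in Th17 even though that library was deeper. It ranked 161st in Th0 and 181st in Th17.

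The passenger arms were rare, as passengers usually are. miR-183-3p had 431 reads in Th0 and 648 in Th17, or 51.6 CPM (46.8 to 56.7) and 54.1 CPM (50.0 to 58.4). Its fold of 1.05 had an interval that spanned 1 (0.928 to 1.19). miR-182-3p, from the hairpin with the most reads, had 22 reads in Th0 and 44 in Th17, or 2.63 CPM (1.65 to 3.99) and 3.67 CPM (2.67 to 4.93). Its fold was 1.40 (0.819 to 2.45), an interval that spanned 1, so no difference was detected on these few reads.

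**Figure D1:**
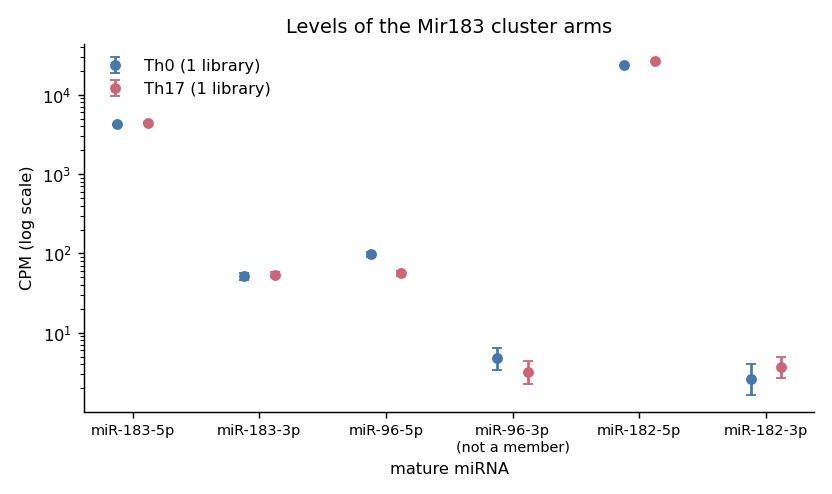
Levels of the 5 members and of miR-96-3p in CPM on a log axis, with 1 point per library (Th0 blue, Th17 red) and bars for the exact 95% Poisson interval of the read count. miR-182-5p and miR-183-5p lie far above the rest, and miR-96-5p is the member whose Th17 point lies below its Th0 point with intervals apart.

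Summed over the 5 members, the cluster held 2.80% of the listed reads in Th0 (2.79 to 2.81%) and 3.13% in Th17 (3.12 to 3.14%). The total was 1.117-fold that of Th0 (1.112 to 1.123). This sum is mostly miR-182-5p, and without it the other 4 members were together at 4371 CPM in Th0 and 4571 in Th17, a fold of 1.05 (1.03 to 1.06).

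A mean of 10 CPM was reached by 4 of the 5 members, and not by miR-182-3p. None of these 4 differed by 2-fold or more, against 59 of the 298 miRNAs at that mean (19.8%), of which 20 were higher in Th17 (6.71%) and 39 lower (13.1%). miR-96-5p was past 1.5-fold, as were 42.3% of the 298 in either direction, 25.5% toward lower values and 16.8% toward higher. A fold interval above 1 was found for 2 of the 4 (miR-182-5p and miR-183-5p) and for 40.6% of all 298. A fold interval below 1 was found for miR-96-5p and for 47.7% of all 298. With intervals this narrow, most miRNAs had one that left out 1, so these counts do not set the members apart.

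The log2 folds were 0.18 for miR-182-5p, 0.079 for miR-183-5p, 0.069 for miR-183-3p and -0.79 for miR-96-5p. Over all 298 miRNAs the median was -0.080 and the quartiles were -0.61 and 0.38. The first 3 members lay between the quartiles. miR-96-5p lay below the lower one, with 58 of the 298 (19.5%) lower still. Among 78 other miRNAs whose mean CPM was within 2-fold of that of miR-96-5p, the median was -0.18, the quartiles were -0.61 and 0.31, and 15 (19.2%) were lower than miR-96-5p.

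**Figure D2:**
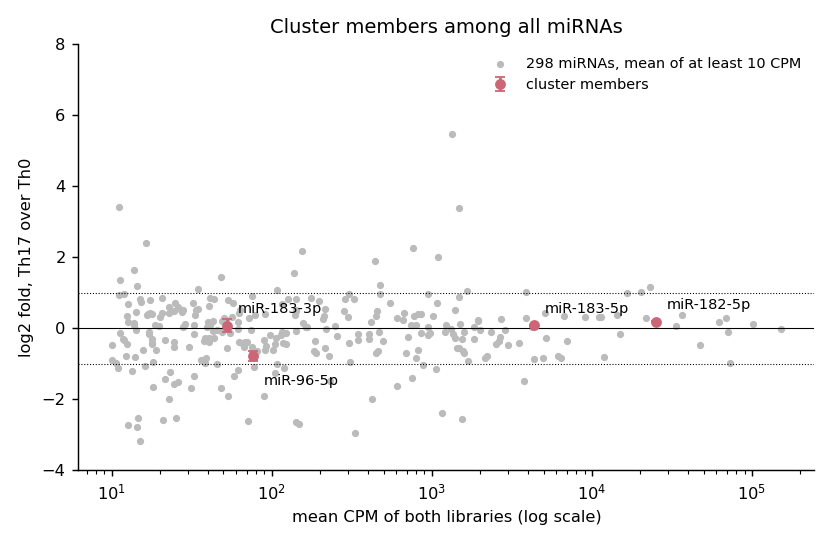
Log2 fold of Th17 over Th0 against the mean CPM of both libraries (log axis) for 298 miRNAs (grey), with 4 cluster members in red and bars for their exact 95% interval. Dotted lines mark 2-fold, and all 4 members lie between them, with miR-96-5p at -0.79 the lowest.

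The makeup of the cluster does not depend on how the libraries are scaled, since it compares reads within 1 library. miR-182-5p took 84.4% of the cluster's reads in Th0 (84.2 to 84.5%) and 85.4% in Th17 (85.3 to 85.5%). miR-183-5p took 15.1% (14.9 to 15.2%) and 14.2% (14.1 to 14.4%). miR-96-5p took 0.346% (0.323 to 0.371%) in Th0 and 0.179% (0.166 to 0.193%) in Th17. The intervals of all 3 guide arms were apart between the libraries. In percentage points the shares moved by 1.00 for miR-182-5p, -0.83 for miR-183-5p and -0.17 for miR-96-5p, and relative to its Th0 share that of miR-96-5p moved most of the 3. The passenger arms kept small shares, with miR-183-3p at 0.184% (0.167 to 0.202%) and 0.173% (0.160 to 0.187%). miR-182-3p was at 0.0094% (0.0059 to 0.0142%) and 0.0117% (0.0085 to 0.0158%).

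The same holds for ratios between members. For each read of miR-183-5p there were 5.60 reads of miR-182-5p in Th0 (5.53 to 5.66) and 5.99 in Th17 (5.94 to 6.05), a change of 1.07-fold (1.06 to 1.09). For each read of miR-96-5p there were 244 reads of miR-182-5p in Th0 (227 to 261) and 477 in Th17 (442 to 515), a change of 1.96-fold (1.76 to 2.17). For each read of miR-96-5p there were likewise 43.5 reads of miR-183-5p in Th0 (40.6 to 46.7) and 79.6 in Th17 (73.7 to 86.0), a change of 1.83-fold (1.65 to 2.03). All 3 ratios were larger in Th17, those to miR-96-5p by far more than that between miR-182-5p and miR-183-5p. Read numbers of different miRNAs also depend on how well each sequence takes the sequencing adaptors, which was not tested.

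**Figure D3:**
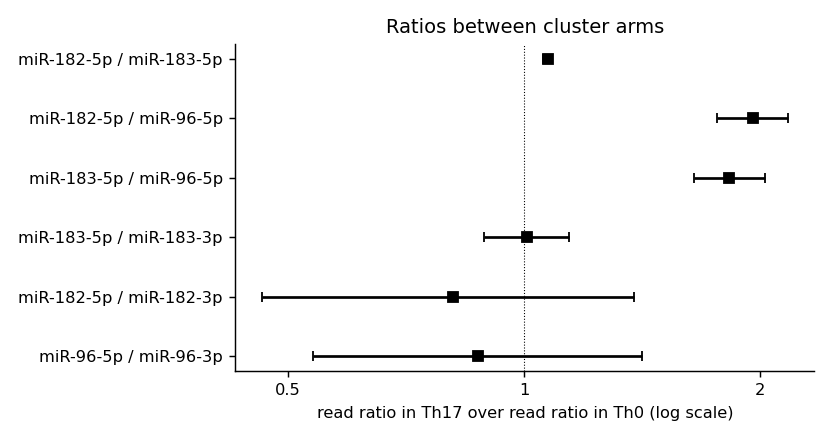
Ratio of the reads of 2 arms in Th17 over the same ratio in Th0, on a log axis, with exact 95% intervals and a dotted line at 1 for no change. The 2 ratios to miR-96-5p, at 1.96 and 1.83, stand to the right, and the 3 ratios between the arms of 1 hairpin have intervals that span 1.

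In each of the 3 hairpins the 5p strand held nearly all reads, and its share was close to the same in both libraries. For Mir182, 5p reads made up 99.989% (99.983 to 99.993%) of the Th0 reads and 99.986% (99.982 to 99.990%) of the Th17 reads. In Mir183 it was 98.79% (98.67 to 98.90%) and 98.80% (98.71 to 98.89%). In Mir96 it was 95.3% (93.6 to 96.6%) and 94.6% (92.7 to 96.2%), on 850 and 709 reads.

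None of the 3 hairpins shifted by 10 percentage points with intervals apart, and 4 of 173 hairpins with at least 100 reads in each library did (2.31%). The median absolute shift over the 173 was 0.508 points. Of these hairpins, 52 had a 5p share over 98% in both libraries, as Mir183 and Mir182 did, and 58 had 1 arm over 99% in both, as Mir182 did.

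miR-96-3p had 40 reads in Th0 and 38 in Th17, or 4.79 CPM (3.42 to 6.52) and 3.17 CPM (2.25 to 4.36). Its fold of 0.663 had an interval that spanned 1 (0.414 to 1.06). Th0 had 20.3 reads of miR-96-5p per read of miR-96-3p (14.7 to 28.6) and Th17 had 17.7 (12.7 to 25.2), a change of 0.872-fold (0.538 to 1.41). At this depth a change in arm use within the Mir96 hairpin as large as the change of miR-96-5p against miR-182-5p was not detected. The arms of Mir183 were in nearly the same ratio in both libraries, 81.8 (74.4 to 90.2) and 82.4 (76.2 to 89.1).

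**Figure D4:**
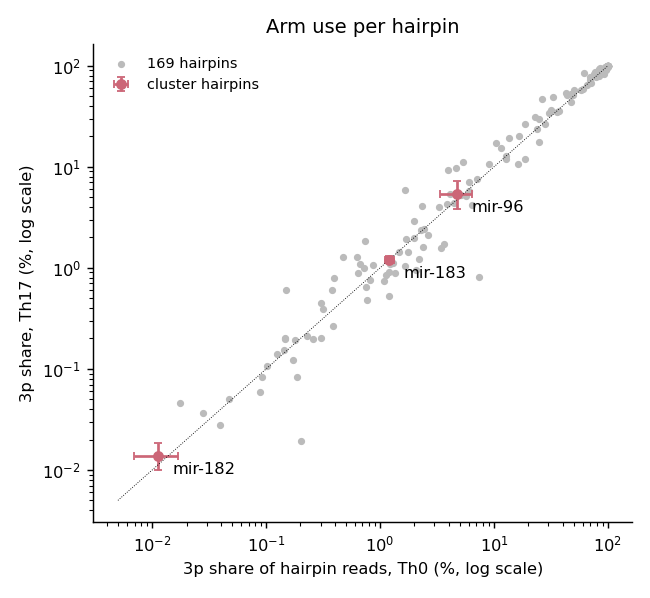
Share of the 3p arm among the reads of a hairpin in Th17 against Th0, both in percent on log axes, for 169 of the 173 hairpins (those with 3p reads in both libraries), with the 3 cluster hairpins in red and exact 95% intervals. Mir182, Mir183 and Mir96 lie close to the dotted line of equal shares, with Mir182 at 0.011% and 0.014% far down the scale.

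Adding both arms, the Mir96 hairpin went from 101.7 CPM in Th0 to 59.2 CPM in Th17, a fold of 0.582 (0.526 to 0.644). The Mir183 hairpin went from 4272 to 4512 CPM, a fold of 1.06 (1.04 to 1.07), and the Mir182 hairpin from 23623 to 26713 CPM, a fold of 1.13 (1.12 to 1.14). The hairpin that was lower in Th17 thus lies between the other two on the transcript.

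Folds of members of 1 transcript can also differ in other clusters, so their range was set beside that of 11 other miRNA clusters. Among the 4 measured members of the Mir183 cluster the log2 folds ran over 0.97, from miR-96-5p to miR-182-5p, which was the second largest range of the 12 lists as compared here. The order depends on the lists and the minimum. The Mir181a-1 list leaves out the guide arms miR-181a-5p and miR-181b-5p, which other loci share, and with them its range was 1.15. At a mean of 100 CPM, which leaves 2 members of the Mir183 cluster and drops miR-96-5p, its range was 0.098 and 8 of 9 other clusters had a wider one. The Mir17 cluster, which drives lymphocyte proliferation, had a range of 2.51 over 8 members, from miR-19a-3p at -2.71 to miR-18a-3p at -0.20. The Mir181a-1 cluster, whose miRNAs tune T cell receptor signalling, had a range of 0.93 over 2 members, from miR-181b-1-3p at -0.16 to miR-181a-1-3p at 0.77. The Mir23a cluster had a range of 0.89 over 4 members, from miR-27a-3p at -0.87 to miR-27a-5p at 0.027. The smallest range was 0.13, in the Mir132 cluster, from miR-212-3p at 0.38 to miR-132-3p at 0.51. The median range of the 11 others was 0.68. A range grows with the number of members and with counting error, and with 1 library per group the differences between clusters were not tested. Without miR-96-5p the range of the Mir183 cluster was 0.11.

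**Figure D5:**
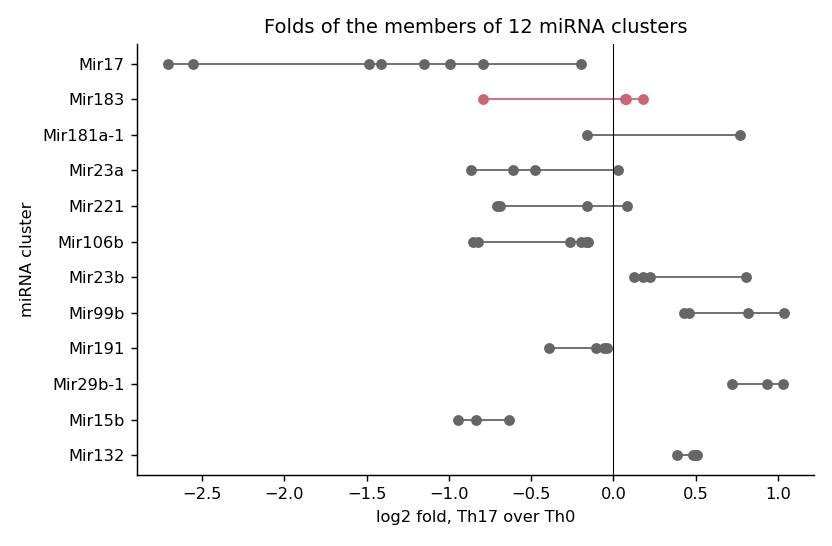
Log2 fold of Th17 over Th0 for the measured members of 12 miRNA clusters (mean from 10 CPM up), with 1 point per mature miRNA and a line from the lowest to the highest, ordered by range. In the Mir183 cluster (red) 3 points lie together from 0.069 to 0.18 and miR-96-5p lies apart at -0.79.

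The miRNAs nearest to each guide arm in level over both libraries, by distance between log2 CPM values, give a scale for these numbers. miR-183-5p was nearest to let-7d-5p (4167 CPM in Th0 and 4267 in Th17, distance 0.066) and to miR-30c-5p (3523 and 4260 CPM, distance 0.27). miR-182-5p was nearest to let-7i-5p (19579 and 23897 CPM, distance 0.31) and let-7f-5p (32931 and 34259 CPM, distance 0.60). miR-96-5p was nearest to miR-3535 (93.6 and 57.5 CPM, distance 0.064) and miR-221-5p (95.1 and 58.9 CPM, distance 0.076). Nearness here means only a like level in the 2 libraries, and how many miRNAs lie this near to each other was not counted.

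Foxo1, the known target, was not measured in these libraries, which hold small RNA only. Its 3′ UTR in GENCODE M21, 6240 bases on the plus strand of chromosome 3, was searched on the sense strand for the complement of each seed: GTGCCAT for miR-183-5p, GTGCCAA for miR-96-5p and TTGCCAA for miR-182-5p. Each occurred once. They are shown because the known target can be read for all 3 guide arms, with the match in capitals and GRCm38 positions.
miR-183-5p match, chr3:52347204-52347232: agataaggactGTGCCATtgggaatcatt
miR-96-5p match, chr3:52347230-52347258: attacaatgaaGTGCCAAactcactacac
miR-182-5p match, chr3:52350871-52350899: tgtgtttgctcTTGCCAAaagctgccgga

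The matches of miR-183-5p and miR-96-5p start 26 bases apart, and those of miR-96-5p and miR-182-5p are followed by an A, the base opposite position 1 of the miRNA that Argonaute is known to favour. Such 7-base matches are common in long UTRs. Among the 395 genes whose longest 3′ UTR has at least 6240 bases, Foxo1 included, the first 6240 bases held GTGCCAT in 32.9%, GTGCCAA in 31.9% and TTGCCAA in 35.9%. All 3 were held by 20 of the 395 (5.06%). A match is a stretch of letters and does not show binding.

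Other miRNAs reported to target Foxo1 were listed beside the cluster. Of 11 in this list, 8 were found in at least 1 library and 4 reached a mean of 10 CPM. None of the 4 differed by 2-fold, against 19.8% of all 298, so this 0 does not set them apart. Their median log2 fold was -0.33, beside -0.080 for all 298. miR-27b-3p, one of the most abundant miRNAs in these cells, was at 97526 CPM in Th0 and at 106160 in Th17, a fold of 1.089 (1.086 to 1.092). Its paralog miR-27a-3p was at 5635 CPM in Th0 and at 3088 in Th17, 1.82-fold lower there (1.80 to 1.85). miR-139-5p was at 233 and 144 CPM, 1.62-fold lower (1.52 to 1.73). miR-486a-5p was at 163 and 167 CPM, with a fold interval that spanned 1 (0.955 to 1.10). It had 1360 reads in Th0 and 1995 in Th17, beside 1361 and 1999 5p reads for the mir-486b hairpin. Its reads thus cannot be separated with certainty from those of miR-486b-5p, and the same reads may be counted for both. Among the cluster members and the miRNAs of this Foxo1 list alone, miR-182-5p was thus the second most abundant, after miR-27b-3p.

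The miRNAs of the blood cell and T cell lists were present, which does not by itself show the labelled helper T cells. miR-142a-5p, which marks blood cells, was at 58347 CPM in Th0 and 65898 in Th17, and miR-150-5p, a lymphocyte miRNA, at 9910 and 12282 CPM. The other 2 of the 4 blood cell markers were miR-142a-3p at 2194 and 1153 CPM and miR-155-5p at 14346 and 31749 CPM. Of the T cell list, miR-181a-5p was at 11156 and 22098 CPM, miR-146a-5p at 2552 and 5161 CPM and miR-21a-5p at 153148 and 150405 CPM. The protein markers of Th17 cells cannot be read from small RNA.

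Markers of myeloid, erythroid and neural cells were low. The 2 myeloid markers summed to 3.35 CPM in Th0 and 6.93 in Th17, the 3 erythroid markers to 0.838 and 3.51 CPM and the 3 neural markers to 14.0 and 5.26 CPM. Nearly all of the neural sum was miR-9-5p, at 13.9 CPM in Th0 and 4.76 in Th17. Nearly all of the myeloid sum was miR-223-3p, at 3.35 and 6.76 CPM. At the low end, miR-223-5p, miR-144-3p and miR-124-3p had 0 reads in Th0 and 2 reads each in Th17. In Th0 the limit of 3 reads is 0.359 CPM. Epithelial and sensory cells also express the cluster, so their markers bear on it. All 8 of these markers were listed in at least 1 library, and their summed level was 415 CPM in Th0 and 229 in Th17. miR-205-5p was at 0 reads in Th0 and 1 in Th17, and miR-375-3p at 4 and 5 reads. Of the 6 at a mean of 10 CPM, 2 were at least 2-fold lower in Th17, against 13.1% of all 298. These were miR-200b-3p, from 141 to 37.3 CPM, and miR-200a-3p, from 37.1 to 12.4 CPM. The other 4 were miR-429-3p at 51.2 and 25.9 CPM, miR-141-3p at 134 and 100.4 CPM, miR-203-3p at 27.8 and 21.0 CPM and miR-200c-3p at 23.1 and 31.7 CPM. Of these 6, 5 were lower in Th17, as miR-96-5p was and as were 159 of all 298 miRNAs (53.4%), and their part in its level was not tested. In bulk RNA, fewer cells of a type and less RNA per cell cannot be told apart.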

How the data were processed

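For each library the authors deposited 1 table of mature miRNAs. Its counts are raw, whole numbers of reads per mature miRNA, per the file headers and values. Its TPM values were computed by the authors from the same counts with 1 total per library. Per the submitters' processing notes, the genome build was mm10. Not given in the sources used here were the trimming tool, aligner, miRNA release, allowed mismatches and handling of multi-mapped reads.

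The analysis used counts, scaled to the sum of listed reads (8358010 and 11975371). A miRNA missing from 1 table counted as 0. Folds have exact conditional (Clopper-Pearson) intervals, levels exact Poisson intervals, shares Clopper-Pearson intervals and ratios of ratios exact conditional odds ratio intervals, at 95% (scipy 1.17.1). The ratio procedure was run on simulated Poisson counts at fixed depth, the same model that its intervals assume. That simulation held no PCR copies and no spread between cultures, so it cannot show how the intervals fare with either. TMM factors (edgeR 4.0.16) and DESeq2 1.42.0 size factors were used for scaling alternatives only. A call needed a mean of 10 CPM, 2-fold and an interval without 1. Sequences are from RefSeq (GRCm38.p6) and GENCODE M21.

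The members and lists were chosen with earlier results of these data known. Named were the members, miR-96-3p, sharers of their seeds, list members at 10 CPM or more, the 2 nearest miRNAs in level and the ends of cluster ranges; miRNAs on few reads are named where a marker list needs them.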

Additional observations from a re-analysis of the deposited data

Results flagged for a closer look

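The totals behind the deposited TPM values are larger than the listed reads, by 7.88% of that total in Th0 and 8.38% in Th17. These reads appear in no row of the tables and were not analysed here. With those totals the fold of the cluster total was 1.11, close to the 1.12 from listed reads.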

How the results depend on the processing

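Of 61 values recomputed under other settings, 40 stayed within their counting interval (or, for counts, within 1.5 times) and 21 moved. Among the folds, none changed direction, while shares, counts and ranges have none to change. Each scaling shifts all folds by the same amount, at most 0.078 in log2, so these are not separate checks. Intervals are so narrow for abundant miRNAs that small shifts of scale leave them. With TMM scaling the fold of miR-182-5p was 1.138 and that of the cluster total 1.124. With DESeq2 size factors they were 1.194 and 1.180, and miR-183-5p was at 1.115. Without the 10 most abundant miRNAs of either library in the total, the 3 folds were 1.087, 1.074 and 1.015. That total leaves out 11 miRNAs, 1 of them the member miR-182-5p, whose own fold is thus scaled to a total without it. With the totals implied by the deposited TPM the cluster total was at 1.111, and without miR-182-5p it was at 1.046. The fold of miR-96-5p ran from 0.556 to 0.610 under the 4 other scalings. Over the 3 guide arms alone the share of miR-182-5p was 84.55% in Th0 and 85.54% in Th17. The count of miRNAs at least 2-fold higher, 20, became 69 with no minimum, 13 at a mean of 100 CPM and 50 at 1.5-fold, and the count lower, 39, became 100, 15 and 76. At 5 percentage points 17 hairpins shifted in arm use. The range of log2 folds in the cluster was 0.098 at a mean of 100 CPM, which leaves out miR-96-5p and miR-183-3p, and 0.108 without miR-96-5p, a setting chosen after seeing the data. No paired analysis was possible because each group has 1 library.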
